A study of Mus musculus with 32 samples.

Results

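Mmp3-positive stromal cells were examined in cultures of mouse embryonic fibroblasts (MEFs) at days 6, 9 and 12 of reprogramming in serum. The cells were chosen by their Mmp3 transcripts. A cell was taken when its barcode was missing from the feeder list that the authors deposited, when it held 1000 or more unique molecular identifiers (UMIs, each standing for 1 captured transcript), and when 2 or more of these were Mmp3. In all, 51 cells met the rule, of 1610 unlisted cells of that depth in the same 6 libraries and of 8334 barcodes in the 32 libraries of the series. They came as 6 and 6 cells from day 6 replicates A and B, 11 and 9 from day 9, and 8 and 11 from day 12. They were compared with the 1531 cells of the same libraries with 0 Mmp3 UMIs, and then with listed feeder cells and untreated MEFs. Since Mmp3 chose the cells, its own level is given as a description, with no test, and it was left out of every fit.

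The study measured single-cell 3' RNA in 16 groups of 2 libraries, covering MEFs under reprogramming in several media, untreated MEFs and embryonic stem cells (ESCs). The 6 libraries used here (FBS days 6, 9 and 12) held embryonic MEFs that were plated on irradiated MEFs and given doxycycline at 2 ug/mL in an ESC medium with serum and leukaemia inhibitory factor, and no small molecule. The 2 untreated MEF libraries held the starting cells, 729 in all after the same filters, and 82 listed feeder cells of 1000 or more UMIs were found in the 6 FBS libraries. Neither the factors that doxycycline induced nor the way the feeder list was made is given in the sources used here.

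The Mmp3-positive cells of a library summed to 39591 to 159738 UMIs, the Mmp3-zero cells to 1563821 to 3564733, the listed feeder cells to 37819 to 355402 and the MEFs to 6987382 and 8848775. The median cell held 7950 UMIs among Mmp3-positive cells, 7625 among Mmp3-zero cells and 11024 among listed feeder cells. Scrublet, which scores barcodes that may hold 2 cells, called 0 of 51 Mmp3-positive and 33 of 1531 Mmp3-zero cells doublets. No barcode was shared by any pair of the 6 libraries, and 1 of the 51 barcodes also occurred in another of the 32 libraries. Nothing in the labels states whether replicates A and B were grown apart, and p-values here rest on the spread between libraries, which may be technical.

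Mmp3 encodes stromelysin-1, a secreted zinc protease of connective tissue cells that cleaves proteoglycans, fibronectin and other matrix proteins and activates other metalloproteinases. It lies in a cluster of metalloproteinase genes with Mmp13, which encodes collagenase-3. The genes of this cluster are classically induced in fibroblasts through AP-1 sites (the binding motif of Fos and Jun dimers) close to their starts. In reprogramming, fibroblasts are known to shut down their mesenchymal genes and take up epithelial and then pluripotency genes, and cells that keep a fibroblast programme stay in the dish beside them, as do the growth-arrested feeders.

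Mmp3 spans 7445822 to 7455975 on the plus strand of chromosome 9 in mm10, and Mmp13 spans 7272514 to 7283331 on the same strand. Of the other genes used as marks of these cells, Penk spans 4133531 to 4138819 on the minus strand of chromosome 4 and Aspn 49544443 to 49567565 on the plus strand of chromosome 13. All 4 are protein-coding in the GENCODE annotation. The 100 bases before the starts of the 2 protease genes (RefSeq, GRCm38.p6) are shown because the AP-1 motif searched for, TGAGTCA or its reverse complement TGACTCA, stands in each. The capitals mark it, 46 to 40 bases before the start of Mmp3 and 35 to 29 bases before that of Mmp13.
Mmp3, chr9:7445722-7445821, plus strand: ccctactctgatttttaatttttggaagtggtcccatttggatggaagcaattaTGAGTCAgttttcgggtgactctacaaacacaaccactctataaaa
Mmp13, chr9:7272414-7272513, plus strand: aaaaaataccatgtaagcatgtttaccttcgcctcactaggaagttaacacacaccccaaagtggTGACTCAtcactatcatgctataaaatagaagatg
The motif was found in the last 100 bases before the start of 1.88% of 32851 promoters, and in the last 250 bases of 4.46%. A match of letters is a description of the sequence and was not tied to binding. The promoter of Aspn was available but was not searched by itself, and Penk had none in the promoter set used.

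Mmp3 counts varied widely among the 51 cells. The lowest count was 2 UMIs, the median 11 and the highest 196, and 45 cells had 3 or more, 27 had 10 or more and 9 had 50 or more. Summed by library and scaled to the UMI total of the sum (CPM), Mmp3 ran from 1302 to 4471 CPM with a median of 2212 CPM in Mmp3-positive cells, and it was 0 in Mmp3-zero cells by the rule. In listed feeder cells, which were not chosen by Mmp3, it ran from 491 to 2569.7 CPM with a median of 1043 CPM, and in MEF A and B it was 7.01 and 5.88 CPM. Every Mmp3-positive sum stood above both MEF sums, and the ranges of Mmp3-positive and listed feeder cells overlapped.

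At the edge of the rule, the 6 cells with exactly 2 Mmp3 UMIs summed to 709.7 CPM of Penk, 136 of Mmp13, 2582 of Spp1 and 4334 of Col3a1. The 28 cells with exactly 1 UMI, which entered neither class, summed to 266, 304, 3404 and 1099 CPM of the same genes. Cells with 0 Mmp3 UMIs summed to 160.5, 5.21, 446 and 499.6 CPM of those genes.

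Penk, Mmp13 and Aspn were proposed as marks of these cells with results of these data in view, so their levels are given with no test. Mmp13 and Aspn are still counted in their gene lists below. Penk encodes proenkephalin, the precursor of enkephalin peptides, which some fibroblasts also express. It ran from 253 to 4522 with a median of 1048 CPM in Mmp3-positive cells, and from 80.8 to 329.8 with a median of 154 CPM in Mmp3-zero cells. The classes overlapped for Penk, since 2 Mmp3-positive sums, those of day 6 A and day 9 B, were below the highest Mmp3-zero sum. Mmp13 ran from 248 to 1667 (median 899) CPM in Mmp3-positive cells and from 0.871 to 8.33 (median 6.57) CPM in Mmp3-zero cells, with no overlap. Aspn, which encodes the small matrix proteoglycan asporin, ran from 254 to 1178 (median 745) CPM in Mmp3-positive cells and from 42.6 to 159 (median 91.9) CPM in Mmp3-zero cells, again with no overlap.

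Of the 51 Mmp3-positive cells, 29 had a Penk UMI, 18 an Mmp13 UMI and 38 an Aspn UMI, while all 51 had UMIs of the collagen genes Col1a1 and Col3a1. Of the 51 cells 7 had UMIs of both Penk and Mmp13, and 11 had neither. Across the 51 cells, Mmp3 per UMI had a Spearman correlation of -0.14 with Penk, 0.17 with Mmp13 and 0.04 with Aspn, as a description over cells that share libraries and differ in depth. The 29 cells with a Penk UMI summed to 329 CPM of Mmp13 and 6644 CPM of Spp1, against 2179 and 23590 CPM in the 22 cells without one. The 2 sets also differed in depth, with medians of 9559 and 4709 UMIs.

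Thinning every cell to 1000 UMIs left a Penk UMI in 31.4% of Mmp3-positive and 5.42% of Mmp3-zero cells, and an Aspn UMI in 41.2% of Mmp3-positive and 5.49% of Mmp3-zero cells. An Mmp13 UMI was left in 19.6% of Mmp3-positive and 0.457% of Mmp3-zero cells. Listed feeder cells were at 32.9% for Penk, 22.0% for Mmp13 and 12.2% for Aspn, so Penk and Mmp13 were about as frequent there as in Mmp3-positive cells. Single cells carried much of some genes. Of all UMIs in the 51 cells, 1 cell of day 12 A held 25.2% of those of Penk, and 1 cell of day 12 B held 41.4% of those of Mmp13.

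**Figure D1:**
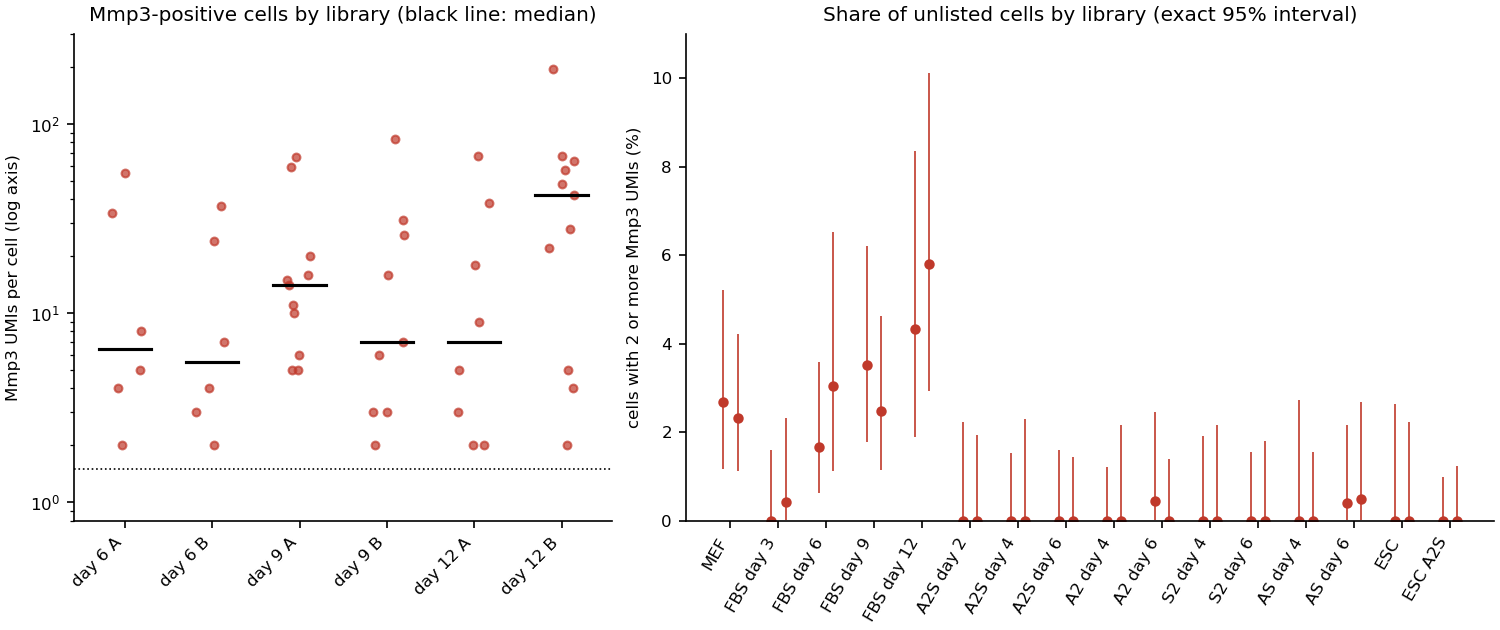
Left, Mmp3 UMIs per Mmp3-positive cell on a log axis, 1 point per cell, by FBS library, with the library's median as a black line and the limit of the rule dotted. Right, the share of unlisted cells of 1000 or more UMIs with 2 or more Mmp3 UMIs in each of the 32 libraries, 2 per group, with exact 95% intervals. Counts run from 2 to 196 UMIs, and the shares of FBS days 6 to 12 lie between 1.67% and 5.79%.

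As counted, the share of Mmp3-positive cells was higher in each late FBS library and in both untreated MEF libraries than in any of the other 24 libraries, but MEF cells were deeper, with medians of 22796 and 19102 UMIs against 5381 to 10488 UMIs among unlisted cells of the late FBS libraries. With each cell thinned to 1000 UMIs, 2 or more Mmp3 UMIs were left in 0.833% to 4.21% of late FBS cells. At that count MEF A had 0%, MEF B 0.464% and any other library at most 0.488%, so the MEFs did not stand above the rest. With 1 or more Mmp3 UMIs left after thinning they did, at 1.01% in MEF A and 0.928% in MEF B. That share was at most 0.488% in any other library outside late FBS, and 1.39% to 6.84% in late FBS. The values as counted follow. It was 2.68% in MEF A (8 of 298 cells) and 2.32% in MEF B (10 of 431). At FBS day 3 it was 0 of 230 cells in A and 1 of 239 in B (0.418%). A count of 0 in A allows up to 1.30% by a limit of 3 over the number of cells, and 1.59% by the exact 95% interval. It was 1.67% and 3.05% at day 6, 3.51% and 2.47% at day 9, and 4.32% and 5.79% at day 12, in replicates A and B. Exact (Clopper-Pearson) 95% intervals were 0.614% to 3.59% for day 6 A and 2.93% to 10.1% for day 12 B, and they overlap. Over the 6 libraries the share averaged 3.47% ± 1.45 (SD, n = 6). The rule used this value, so no test was run. Intervals cover counting error only.

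In the media with small molecules, and in ESCs, the cells were rare or not found. The labels name ascorbic acid, SGC0946 (an inhibitor of the histone methyltransferase DOT1L), CHIR-99021 and PD-0325901 as the molecules used. No cell met the rule among 1235 cells of MEFs in the medium labelled A2S, days 2, 4 and 6, which allows up to 0.243% by the same 3-over-cells limit. None did among 971 ESCs, pooled from the groups labelled ESC and ESC A2S, which allows up to 0.309% by that limit. Among 2590 cells of the media labelled A2, S2 and AS, days 4 and 6, 3 cells did (0.116%). These days are earlier than most of late FBS, and the part of day in the difference was not tested. At day 6 the share was at most 0.488% in any library of these media, against 1.67% and 3.05% in FBS. Mmp3 had exactly 1 UMI in 1 of the 971 ESCs. Among listed feeder cells, 33 of 82 (40.2%) had 2 or more Mmp3 UMIs in the late FBS libraries and 36 of 216 (16.7%) at FBS day 3. Listed feeder cells were also lower elsewhere, with 11 of 122 (9.02%) in A2S, 2 of 132 (1.52%) in A2, S2 and AS and 18 of 109 (16.5%) with ESCs. After thinning to 1000 UMIs, 5, 3, 11, 8, 7 and 13 unlisted cells of day 6 A to day 12 B still had an Mmp3 UMI.

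The stromal label held against the marker lists. All 12 fibroblast markers had UMIs in Mmp3-positive cells, with a summed level of 14030 to 29395 (median 16918) CPM, against 5273 to 8107 (median 7349) CPM in Mmp3-zero cells, 15301 to 30234 CPM in listed feeder cells and 13064 and 14048 CPM in MEFs. Of 12 pluripotency markers 1 had a UMI (0 to 6.26 CPM in Mmp3-positive cells and 76.6 to 769 CPM in Mmp3-zero cells), with Pou5f1, Sox2 and Sall4 at 0. Of 11 epithelial markers 4 had UMIs (0 to 25 CPM against 48.3 to 297 CPM in Mmp3-zero cells), and of 15 macrophage markers 4 did (0 to 21.6 CPM against 105 to 441 CPM), with Ptprc, Csf1r and Lyz2 at 0. Smooth muscle and pericyte markers overlapped between Mmp3-positive (569 to 2839.9 CPM) and Mmp3-zero cells (759.8 to 1256 CPM), with Myh11 and Des at 0. Of 13 endothelial markers 4 had UMIs (107 to 227 CPM against 88.8 to 116 CPM in Mmp3-zero cells), with Pecam1, Cdh5 and Kdr at 0. Of 11 neural crest and glia markers 3 had UMIs (6.26 to 507 CPM against 20.03 to 57.6 CPM), with Sox10 at 0, and of 10 neuron markers 3 did (189.6 to 1010.3 CPM against 196 to 650.4 CPM), with Tubb3, Snap25 and Syt1 at 0. None of 6 erythroid, 1 of 9 keratinocyte and 1 of 10 skeletal muscle markers had a UMI. The part of these other markers in the results below was not tested.

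The Mmp3-positive cells also carried genes of the feeders. A set of 20 genes was higher in listed than in unlisted cells of both FBS day 3 libraries, among them Penk, Spp1, Cxcl15, Rspo2, Wisp2, Il1rl1 and Ppap2b. The lysozyme gene Lyz2 was the member of the set with 0 UMIs in Mmp3-positive cells. The summed level of the set was 10818 to 36422 (median 15981) CPM in Mmp3-positive cells, 1204 to 2619 (median 1579) CPM in Mmp3-zero cells and 15548 to 40932 (median 20676) CPM in listed feeder cells. This sum, and the share per cell given below, lean on Spp1. It had 5684 UMIs in the 51 cells, against 837 for Penk, 723 for Ppap2b and 165 for Il1rl1. Penk is also a proposed mark of these cells. Likeness over the set without Spp1 and Penk was not tested. The Mmp3-positive and listed feeder ranges overlapped, while every Mmp3-positive sum was above every Mmp3-zero sum. Per cell, 38 of 51 Mmp3-positive cells reached the lower quartile of the listed feeder cells, 0.596% of a cell's UMIs, as did 73 of 1531 Mmp3-zero cells (4.77%).

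A few Mmp3-positive cells carried G2 and M phase genes at a level that no listed feeder cell reached. Irradiated feeders are growth arrested, and 0 of 82 listed feeder cells had 5 or more UMIs of the 52 G2/M genes per 1000 UMIs, against 7 of 51 Mmp3-positive cells (13.7%) and 299 of 1531 Mmp3-zero cells (19.5%). Of those 7 cells, 4 were among the 38 with feeder genes at the feeders' level and 3 among the other 13. Summed by library, G2/M genes were at 1273 to 8706 (median 4035) CPM in Mmp3-positive cells, 3516 to 4295 (median 3903) CPM in Mmp3-zero cells and 723 to 929 (median 773) CPM in listed feeder cells. These sums rest on the 7 cells. Per cell, 44 of 51 Mmp3-positive cells lay below 5 per 1000, with quartiles of 0.0731% and 0.191% of UMIs over all 51. The quartiles were 0.0865% and 0.290% in Mmp3-zero cells and 0.0534% and 0.103% in listed feeder cells. In day 6 B 1 cell held 351 of 515 G2/M UMIs and in day 12 B 1 cell held 615 of 935. Without the 7 cells the sums were 721 to 1339.8 CPM, with those of day 6 B, 9 B and 12 B at 721, 752 and 799 CPM. The 7 cells were picked by these same genes, so a fall was fixed in advance. Mmp3-zero cells above the line were not left out in the same way, so these sums do not measure likeness to feeders. How much of each difference described here lies in feeder cells missing from the list was not tested.

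**Figure D2:**
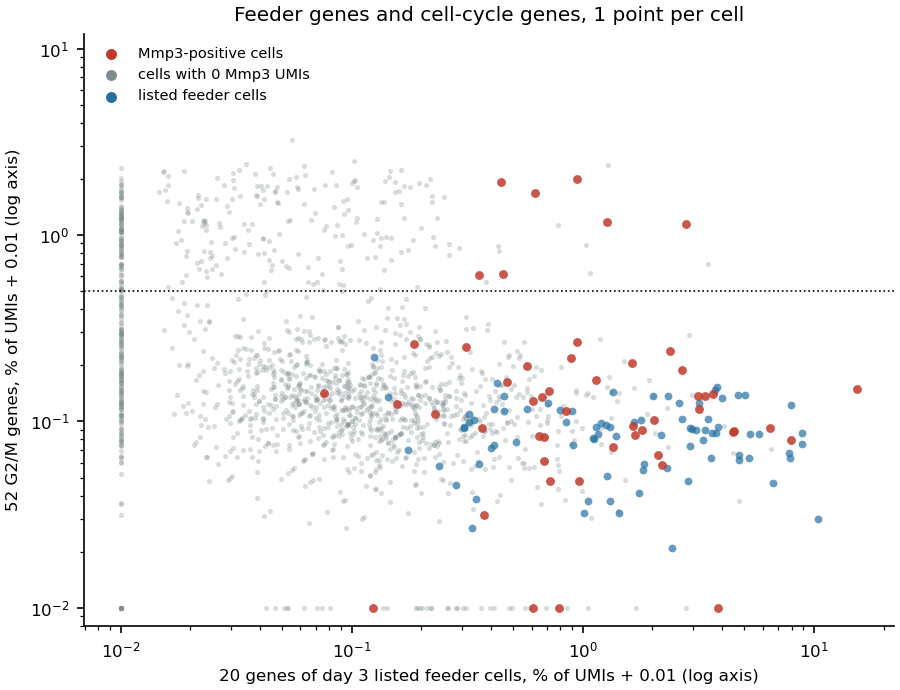
Share of each cell's UMIs from the 20 genes of day 3 listed feeder cells (x, percent of UMIs plus 0.01, log axis) and from 52 G2/M genes (y, same scale), 1 point per cell, for Mmp3-positive cells, cells with 0 Mmp3 UMIs and listed feeder cells of FBS days 6 to 12. The dotted line is 5 UMIs per 1000. Above it lie 7 of 51 Mmp3-positive cells, 299 of 1531 Mmp3-zero cells and none of 82 listed feeder cells.

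Mmp3-positive cells were then compared with Mmp3-zero cells of the same libraries, gene by gene. UMIs were summed per library and class and tested with edgeR's quasi-likelihood test with the library as a block, and the threshold for a call was 0.05 after Benjamini-Hochberg adjustment. Only day 9 A and day 12 B reached the 10 Mmp3-positive cells set as a minimum, so the planned fit rests on 4 sums. A fit over all 6 libraries, which uses all 51 cells, was added after the data were seen. In the 2-library fit 396 of 9461 genes were higher (4.19%) and 417 lower (4.41%), and in the 6-library fit 550 of 8854 were higher (6.21%) and 759 lower (8.57%). Both called 713 genes, each of the 713 in the same direction, which is 87.7% of the calls of the 2-library fit and 54.5% of those of the 6-library fit. Day 9 A and day 12 B are in both fits, so this overlap is partly built in. A call in both is not a call in separate data. The median log2 fold change over all genes tested was -0.14 in the 2-library and -0.16 in the 6-library fit. Sums of 6 to 11 cells scatter more than sums of 169 to 353 cells, and voom with a variance per class called 1002 and 1093 genes.

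In what follows a pair of log2 fold changes ± SE, Mmp3-positive over Mmp3-zero cells, gives the 2-library fit before the 6-library fit. Genes were called in both unless said otherwise, and levels are the lowest, median and highest of the 6 library sums. With 6 to 11 cells in a sum, 1 cell can weigh heavily, so for a gene that rose the share of its UMIs held by a single cell is given where it was above 30%.

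Proteases of the matrix rose with Mmp3, and so did some of their inhibitors. Of the other metalloproteinase genes tested, 4 of 5 rose in the 2-library fit and 4 of 6 in the 6-library fit. Mmp13, a mark proposed with these data in view, is counted among them and adds no support. Mmp2, gelatinase A, was at 186, 729 and 1015 CPM in Mmp3-positive cells, against 167, 174 and 260.3 CPM in Mmp3-zero cells (1.88 ± 0.26 and 1.75 ± 0.20). Mmp14, the membrane protease that activates Mmp2, was at 135, 223 and 447 CPM against 48.4, 74 and 86.1 CPM in Mmp3-zero cells (1.82 ± 0.37 and 1.72 ± 0.27). For Mmp14 the classes did not overlap, and for Mmp2 the lowest Mmp3-positive sum, of day 6 B, lay within the Mmp3-zero range. Mmp19 rose by 4.11 ± 0.62 and 3.00 ± 0.49 on the log2 scale, and Mmp23 was at 1.43 ± 0.68 with an adjusted p of 0.169 in the 6-library fit alone, which tested it.

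The adamalysin genes split. Adamts1, a secreted protease of proteoglycans such as versican, was at 177, 231 and 1112 CPM in Mmp3-positive cells, against 36.7, 47.8 and 64 CPM in Mmp3-zero cells (3.58 ± 0.31 and 2.81 ± 0.26). Adam23, a surface protein of the family with no protease activity, fell (-3.50 ± 0.46 and -3.45 ± 0.36). Of this list 5 rose and 3 fell among 17 tested in the 2-library fit, and 4 rose and 3 fell among 15 in the 6-library fit.

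Among protease inhibitors 9 of 14 and 9 of 15 rose and none fell in either fit. Timp2, a tissue inhibitor of metalloproteinases that also takes part in the activation of Mmp2, was at 1268, 1829 and 2679.6 CPM in Mmp3-positive cells, against 423, 491 and 571 CPM in Mmp3-zero cells (1.71 ± 0.22 and 1.85 ± 0.16). Timp1, which inhibits most secreted metalloproteinases, differed less (0.93 ± 0.24 and 0.76 ± 0.18), and in the 2-library fit its call was lost under DESeq2 and without the block. Serpinf1, the secreted serpin PEDF, rose by 2.31 ± 0.27 and 2.02 ± 0.21.

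The small leucine-rich proteoglycans, which bind collagen fibrils and set their width, moved in both directions. Of 10 tested in the 2-library fit 4 rose and 1 fell, and of 8 in the 6-library fit 4 rose and 2 fell. Aspn, also a proposed mark, is counted among those that rose and adds no support. Biglycan (Bgn) was at 2552, 3759.8 and 5515 CPM in Mmp3-positive cells, against 553, 701 and 1323 CPM in Mmp3-zero cells (2.36 ± 0.20 and 2.20 ± 0.15), with no overlap. Lumican (Lum) was at 100.2, 203 and 853 CPM against 2.91, 11.7 and 30.4 CPM in Mmp3-zero cells (6.5 ± 0.47 and 4.59 ± 0.34), though 1 cell of day 9 A held 33.8% of its UMIs and 14 of 51 cells had any. Decorin (Dcn) rested on fewer cells still. Its folds were 1.88 ± 0.33 and 0.88 ± 0.29, 1 cell of day 9 A held 53.3% of its UMIs, and without day 9 A the 6-library fold was 0.20 and not called. Without day 6 B it was 0.67 and not called either. Fibromodulin (Fmod), a proteoglycan of tendon, fell, at 13.5, 84.6 and 286 CPM in Mmp3-positive cells against 296, 508 and 937 CPM in Mmp3-zero cells (-2.02 ± 0.29 and -2.26 ± 0.26). Prelp was at -0.60 ± 0.28 in the 2-library fit, not called (adjusted p = 0.207), and at -0.93 ± 0.21, called, in the 6-library fit.

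Many collagen genes rose, and of the collagen processing genes 7 of 18 and 9 of 18 rose and none fell. Of 8 fibrillar collagen genes tested 6 rose in each fit, and 1, the cartilage collagen Col2a1, fell in the 2-library fit. Of the other collagen genes 7 of 13 rose in the 2-library fit, and 8 of 12 rose and 1 fell in the 6-library fit. Col3a1, the collagen of loose connective tissue, was at 1929, 3563 and 9586 CPM in Mmp3-positive cells, against 321, 533 and 570.3 CPM in Mmp3-zero cells (3.04 ± 0.21 and 2.96 ± 0.17). Col1a1, the main collagen of skin and bone, was at 1089.7, 1928 and 2958 CPM against 512, 562 and 651 CPM in Mmp3-zero cells (1.93 ± 0.21 and 1.71 ± 0.16). The classes did not overlap for either gene. Col12a1, a collagen that decorates fibrils, rose by 2.43 ± 0.26 and 2.95 ± 0.19, Col5a2, which controls fibril assembly, by 2.23 ± 0.22 and 2.28 ± 0.17, and Loxl1, a collagen and elastin cross-linking oxidase, by 2.67 ± 0.26 and 2.42 ± 0.20. Col10a1, the collagen of hypertrophic cartilage, was uneven. Its folds were 1.92 ± 0.64 and 3.62 ± 0.40, both lost under DESeq2, 10 of 51 cells had a UMI and 1 cell of day 6 A held 47.3% of them.

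Spp1 had the most UMIs in Mmp3-positive cells of the genes named here. It encodes osteopontin, a secreted phosphoprotein that binds integrins, and it was at 4327, 9744 and 26754 CPM in Mmp3-positive cells, against 99.3, 457 and 1061 CPM in Mmp3-zero cells (4.34 ± 0.21 and 4.53 ± 0.17). Listed feeder cells were at 9176, 13529 and 34902 CPM, and MEF A and B at 1878 and 2023 CPM. Spp1 was also a gene of the feeder set, and 36 of 51 Mmp3-positive cells had a UMI. Among matrix glycoproteins 19 of 32 and 21 of 28 rose and 3 and 2 fell. Tgfbi, an adhesion protein induced by TGF-beta, rose by 2.10 ± 0.24 and 1.98 ± 0.18 and Matn2, a matrilin of fibroblasts, by 3.20 ± 0.69 and 3.10 ± 0.41. Tnn, tenascin-W, rose by 7.85 ± 0.55 in the 2-library fit alone, which tested it, with 12 of 51 cells positive and 32.6% of its UMIs in 1 cell of day 9 A.

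**Figure D3:**
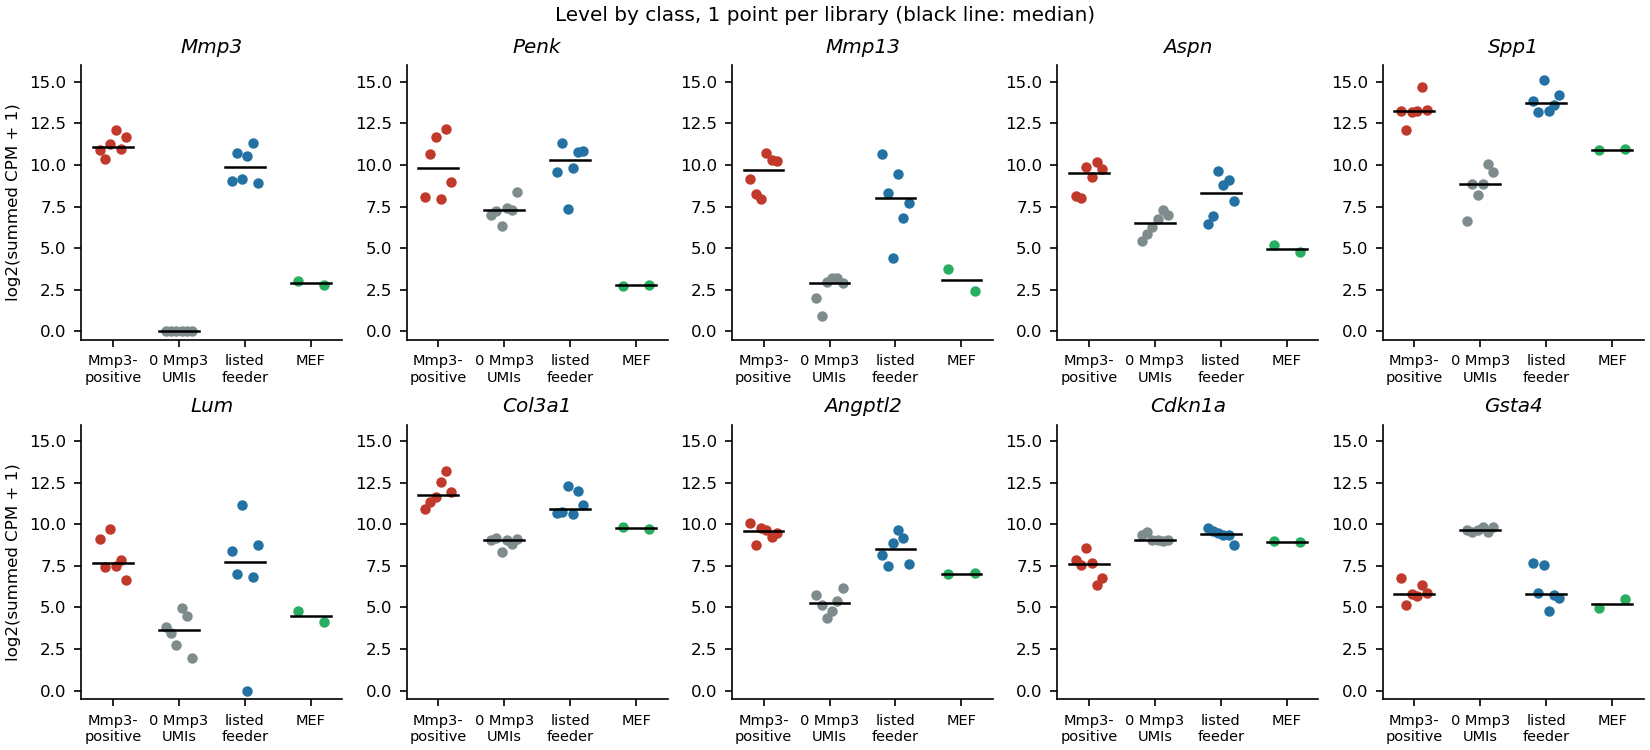
Level of 10 genes as log2(summed CPM + 1), 1 point per library, in Mmp3-positive cells, cells with 0 Mmp3 UMIs, listed feeder cells (6 FBS libraries each) and untreated MEFs (2 libraries), with the median as a black line. Mmp13, Spp1, Col3a1 and Angptl2 do not overlap between Mmp3-positive and Mmp3-zero cells, while Mmp3-positive and listed feeder cells overlap for each gene but Cdkn1a.

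Surface markers of fibroblasts and regulators of limb and connective tissue differed as well. Pdgfra, a receptor that marks fibroblasts and their precursors, was at 25.3, 115 and 151 CPM in Mmp3-positive cells, against 5.29, 10.2 and 15.7 CPM in Mmp3-zero cells (3.81 ± 0.62 and 3.23 ± 0.46). Cd248, endosialin, rose by 2.70 ± 0.31 and 2.39 ± 0.23. Cd34 and Ly6a (Sca-1), which mark progenitor-like fibroblasts, went the other way. Cd34 was at 50.5, 126 and 197 CPM in Mmp3-positive cells, against 460.2, 639.6 and 799.8 CPM in Mmp3-zero cells (-1.72 ± 0.29 and -2.26 ± 0.23), and Ly6a fell too (-1.68 ± 0.26 and -1.73 ± 0.20). Msx1, a homeobox factor of undifferentiated limb mesenchyme, was at 101, 249 and 322 CPM against 11.5, 20.4 and 26.2 CPM in Mmp3-zero cells (3.29 ± 0.50 and 3.46 ± 0.32). Hoxd13, a factor of the distal limb, rose by 2.48 ± 0.39 and 2.77 ± 0.29, and in the 2-library fit it was the only Hox gene of 16 tested to be called. In the 6-library fit Hoxa11 also rose and 4 Hox genes fell, of 13 tested.

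Angptl2, an angiopoietin-like glycoprotein, was at 439.5, 764 and 1072 CPM in Mmp3-positive cells, against 19.2, 37.6 and 71.7 CPM in Mmp3-zero cells (4.27 ± 0.30 and 4.19 ± 0.22). Of the Wnt ligands, modulators and targets 6 of 13 rose and 1 fell in the 2-library fit, and 7 of 9 rose in the 6-library fit. They include modulators of opposite kinds: the Wnt antagonist Dkk2 (4.06 ± 0.42 and 4.09 ± 0.35) and the Wnt agonist Rspo2 (3.52 ± 0.71 and 3.48 ± 0.49). Wisp2, a secreted matricellular protein, rose by 3.15 ± 0.29 and 2.96 ± 0.26. Rspo2 and Wisp2 were both in the feeder set. Of the TGF-beta and BMP genes 8 of 22 rose and 2 fell in the 2-library fit, and 8 of 21 rose and 2 fell in the 6-library fit, with the ligand Tgfb3 higher (2.80 ± 0.35 and 2.95 ± 0.26) and Id2 and Id4 lower. Of the other growth factors 4 of 19 and 7 of 19 rose and 2 fell in each fit. Of the inflammatory secreted genes 3 of 11 and 5 of 12 rose and 1 fell in each fit, with the chemokine Cxcl12 higher (2.47 ± 0.25 and 2.01 ± 0.20).

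The inflammatory gene that fell was Il1rn, the secreted antagonist of the interleukin-1 receptor. It was at 0, 43.3 and 232 CPM in Mmp3-positive cells, against 474, 616 and 774 CPM in Mmp3-zero cells (-3.82 ± 0.36 and -3.48 ± 0.28). Il1rl1, which encodes the interleukin-33 receptor ST2 and was in the feeder set, was at 0, 331 and 1302 CPM against 0.962, 8.37 and 17.4 CPM in Mmp3-zero cells (4.15 ± 0.99 and 5.07 ± 0.40), with UMIs in 18 of 51 cells. It belongs to the list of interleukin-1 and TNF pathway genes, of which 5 of 20 rose and 1 fell in the 2-library fit, and 7 of 18 rose and 1 fell in the 6-library fit. Crabp1, which binds retinoic acid in the cytoplasm, rose by 2.53 ± 0.27 and 2.53 ± 0.22 and was below its Mmp3-zero level in 1 library, day 6 A. Of the transcription factors of the AP-1 and Ets families 2 of 14 and 3 of 14 rose and none fell, and immediate-early genes rose in 3 of 17 and 2 of 15, with 1 lower in each.

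Of the p53 target and senescence genes 8 of 21 fell in the 2-library fit and 10 of 21 in the 6-library fit, and none rose, with median log2 fold changes of -0.84 and -0.87. Cdkn1a, the p53-induced inhibitor of cyclin-dependent kinases p21, was at 81.2, 194 and 378 CPM in Mmp3-positive cells, against 515, 533 and 735 CPM in Mmp3-zero cells (-1.36 ± 0.29 and -1.70 ± 0.22), a call lost under DESeq2 in the 2-library fit. Ccng1, a p53 target too (-1.45 ± 0.27 and -1.70 ± 0.20), and Perp, a p53 target and desmosome protein (-3.24 ± 0.47 and -2.37 ± 0.32), also fell. Gsta4, a glutathione transferase that clears lipid aldehydes, was at 33.8, 55.2 and 107 CPM against 741, 798 and 923 CPM in Mmp3-zero cells (-4.00 ± 0.34 and -3.75 ± 0.25). Aldh3a1, an aldehyde dehydrogenase (-3.58 ± 0.41 and -4.51 ± 0.35), and the metallothionein Mt2 (-1.78 ± 0.26 and -1.77 ± 0.19) fell as well. Of the whole oxidative and detoxifying list, which holds Gsta4 and Mt2, 3 of 20 fell in the 2-library fit, and 5 of 19 fell and 1 rose in the 6-library fit. Aldh3a1 belongs to the list of retinoid and steroid enzymes, which moved both ways. Of these 3 of 12 rose and 2 fell in the 2-library fit, and 3 of 10 rose and 4 fell in the 6-library fit.

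Of the S phase genes 9 of 40 fell in the 2-library fit, where 4.41% of all genes did, and 3 of 40 fell in the 6-library fit, a share below the 8.57% of all genes. Rrm1, a subunit of ribonucleotide reductase, fell in both (-2.04 ± 0.32 and -1.48 ± 0.23). Among G2/M genes 3 of 51 rose and 1 fell, and 1 of 50 rose and 2 fell. Of the contractile and myofibroblast genes 4 of 18 rose and 2 fell in the 2-library fit, and 5 of 17 rose and 1 fell in the 6-library fit. The gene that fell in both, Actg2, the smooth muscle gamma-actin, had 4 UMIs over all Mmp3-positive cells (-4.95 ± 0.46 in the 6-library fit), against 176 to 388 CPM in Mmp3-zero cells.

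Of the pluripotency genes 4 of 9 fell in the 2-library fit, and 4 of 8 fell and 1, Klf2, rose in the 6-library fit. Of the epithelial genes 6 of 9 and 5 of 5 fell, Perp among them with UMIs in 10 of 51 cells. The filter on low counts keeps a gene near 0 in Mmp3-positive cells only through its Mmp3-zero level. For such genes a fall was nearly fixed in advance, so these counts add no support. With no filter 7 and 15 of 37 pluripotency genes fell, and 1 rose in the 6-library fit. Of 31 epithelial genes 6 and 9 then fell, and of all genes 402 of 14658 and 930 of 15950. Tdh, a mitochondrial threonine dehydrogenase of mouse ESCs, had 0 UMIs in all 51 Mmp3-positive cells and was at 32 to 253 CPM in Mmp3-zero cells. It was at least 13.7-fold lower in the 2-library fit and at least 14.8-fold lower in the 6-library fit, against a floor of 3 UMIs over all Mmp3-positive cells of the fit. L1td1, an RNA-binding protein of pluripotent cells, was likewise at least 9.35-fold and at least 11.4-fold lower. Upp1, a uridine phosphorylase, had 0 UMIs in the 2 libraries and 1 in the 6, which gave a ratio of 0.0136 (95% counting interval 0.000344 to 0.0759) over 6 libraries. DESeq2 did not call Tdh, L1td1 or Upp1 in the 2-library fit.

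**Figure D4:**
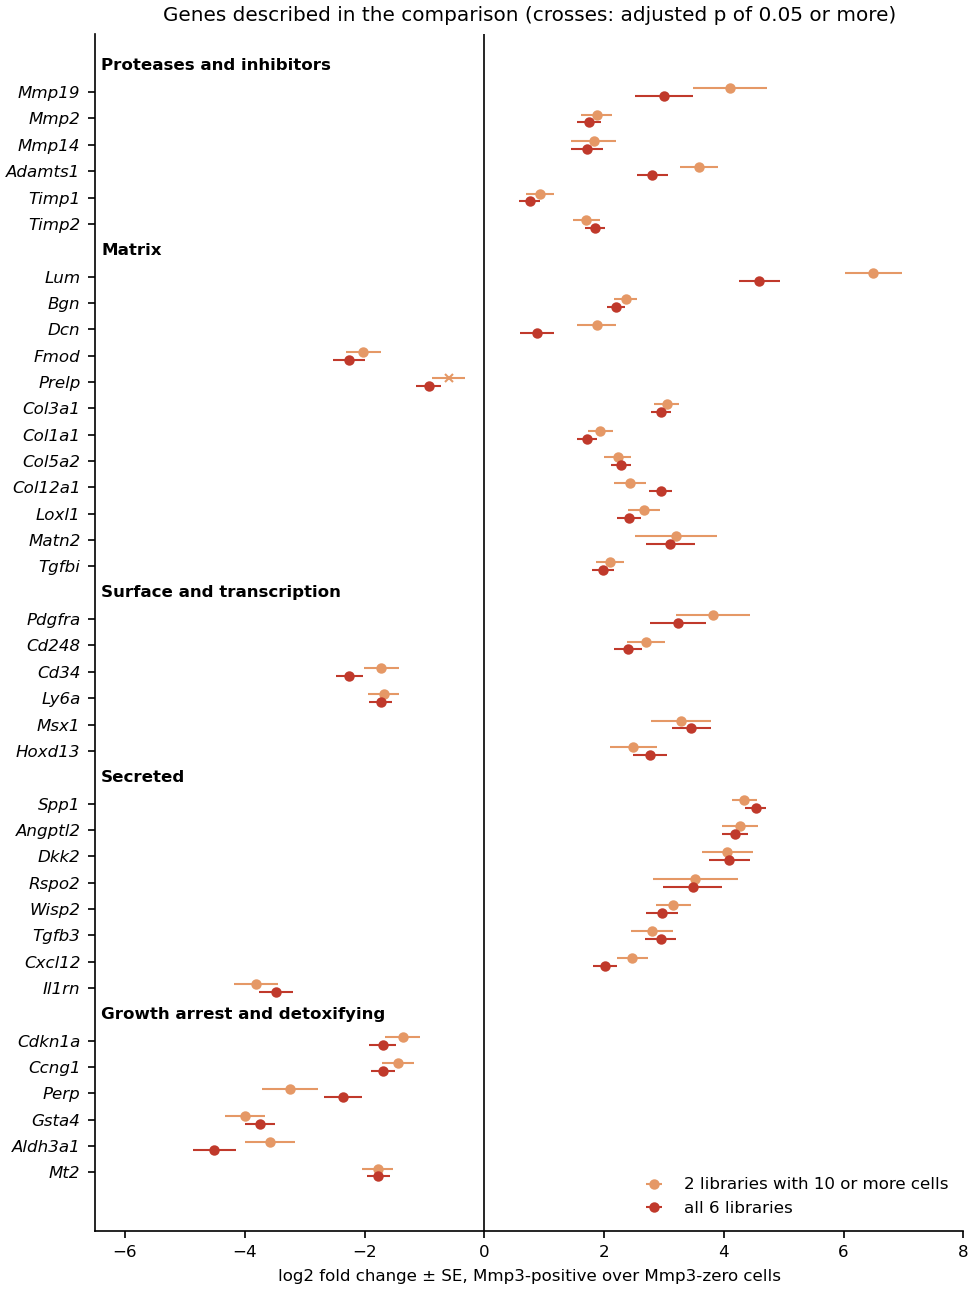
Log2 fold changes ± SE of named genes in Mmp3-positive over Mmp3-zero cells, from the fit over the 2 libraries with 10 or more Mmp3-positive cells and from the fit over all 6, grouped by role. A cross marks an adjusted p of 0.05 or more, here Prelp in the 2-library fit. Lum and Spp1 lie farthest right, and Aldh3a1 and Gsta4 farthest left.

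Comparing Mmp3-positive cells with listed feeder cells asks how far the cells resemble the feeders of the same dishes. Only day 12 B had 10 cells in each class, so the planned test could not be run, and a fit over all 6 libraries with the library as a block was added after the data were seen. It called 36 of 1677 genes higher (2.15%) and 36 lower (2.15%). The count fell to 33 calls without day 6 A, 24 without day 6 B, 40 without day 9 A and 18 without day 12 B. Both classes are small sums here, and 1677 genes passed the filter, against 8854 in the 6-library fit against Mmp3-zero cells. The number of calls therefore does not measure how alike the classes are. Tgfbi was the clearest rise. It was at 555, 1027 and 1490 CPM in Mmp3-positive cells, against 52.9, 187 and 268 CPM in listed feeder cells (2.34 ± 0.29, adjusted p = 0.000748). Crabp1 was at 89.3, 846 and 1724 CPM against 41.4, 126 and 371 CPM in listed feeder cells (2.37 ± 0.39, adjusted p = 0.00508), and it was higher in each of the 6 libraries. Igfbp3, which carries insulin-like growth factors, rose by 1.5 ± 0.28 and Ppap2b, a lipid phosphatase of the feeder set, by 1.67 ± 0.26. Msx1 rose by 2.18 ± 0.47, a call lost without day 6 A, day 6 B or day 12 B.

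Lower than in listed feeder cells was Cdkn1a, at 81.2, 194 and 378 CPM in Mmp3-positive cells against 426, 692 and 884 CPM in listed feeder cells (-1.87 ± 0.24, adjusted p = 0.000748), with no overlap. Ecm1, a matrix glycoprotein (-1.79 ± 0.22), Nupr1, a stress-induced chromatin protein (-1.97 ± 0.31), and Serpine2, an inhibitor of thrombin and plasminogen activators (-2.08 ± 0.43), fell as well. Il1rn fell (-2.79 ± 0.55), a call lost without day 12 B, and Serpine2 lost its call without day 6 B or day 12 B. Col10a1 (-2.59 ± 0.62) lost its call without day 6 B, day 9 A or day 12 B, and the histone gene Hist1h2bc (-2.15 ± 0.54) when any library but day 12 A was left out. Spp1 and Col3a1 were not called, with differences of -0.56 ± 0.33 (adjusted p = 0.368) and 0.70 ± 0.28 (adjusted p = 0.176), though Spp1 was called lower without a filter on low counts. Of 3 G2/M genes tested none was called and no S phase gene was tested. Without that filter 28 of 52 G2/M genes and 7 of 44 S phase genes were called higher, from sums that the few cells above 5 per 1000 carry.

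Untreated MEFs, the starting cells, were not chosen by Mmp3. The fit of 6 Mmp3-positive sums against 2 MEF libraries called 419 of 2589 genes higher (16.2%) and 385 lower (14.9%), and 128 or 118 in all when MEF A or MEF B was left out. All 7 small leucine-rich proteoglycan genes tested rose, the proposed mark Aspn among them. Lum was at 100.2, 203 and 853 CPM in Mmp3-positive cells, against 26.9 and 16.6 CPM in MEF A and B (4.00 ± 0.67). Bgn rose by 1.17 ± 0.38, a call lost without either MEF library, as were those of Spp1 (2.60 ± 0.65) and Col3a1 (2.39 ± 0.58). Col1a1 did not pass (0.43 ± 0.33, adjusted p = 0.336). Igfbp3 was at 625, 5883 and 12700.2 CPM against 32.6 and 25.8 CPM in MEFs (7.66 ± 1.06), and Apod, an apolipoprotein of resting fibroblasts, rose by 6.56 ± 0.93, with 42.9% of its UMIs in 1 cell of day 12 B. Clec3b, tetranectin, had 58 UMIs in Mmp3-positive cells, 32.8% of them in 1 cell of day 12 B, and 2 in MEFs, a ratio of 955 (95% counting interval 253 to 8072). Mmp3-zero cells were not fitted against MEFs, so these rises are not shown to be particular to Mmp3-positive cells. Against Mmp3-zero cells Lum, Bgn, Spp1, Col3a1 and Igfbp3 were called higher in both fits. Apod and Fmod were called lower in both, and Clec3b and Prelp in the 6-library fit.

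Contractile and immediate-early genes were lower than in MEFs. Mmp3-zero and listed feeder cells were not fitted against MEFs, so these falls are not shown to be particular to Mmp3-positive cells. The smooth muscle and pericyte markers summed to medians of 1044 CPM in Mmp3-positive, 1040 in Mmp3-zero and 794 in listed feeder cells. In MEFs that median was 6570 CPM. Of 18 contractile and myofibroblast genes tested 15 fell and none rose, with a median log2 fold change of -1.72 against 0.05 over all genes. Ankrd1, a target of YAP and of mechanical load, had 0 UMIs in Mmp3-positive cells and was at 294 and 277 CPM in MEFs, at least 45.6-fold lower. Actg2 fell (-5.14 ± 0.41), and Cnn1, calponin, had 3 UMIs, a ratio of 0.0210 (interval 0.00432 to 0.0613). Ptgs2, cyclooxygenase-2, fell as well (-5.86 ± 0.48). Immediate-early genes fell in 5 of 11 tests and none rose. Cdkn1a fell (-1.37 ± 0.36), a call lost without either MEF library.

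Between day 12 and day 6 the Mmp3-positive cells themselves showed 0 of 1806 genes called higher (0%) and 0 called lower (0%) by edgeR, with 2 libraries per day, while 108 had an unadjusted p under 0.05. DESeq2 called 2 genes (51 at an unadjusted p under 0.05), and leaving out day 6 A, day 6 B, day 12 A or day 12 B gave 30, 7, 6 and 27 calls in edgeR. The difference between Mmp3-positive and Mmp3-zero cells changed from day 6 to day 12 for few genes. The interaction was positive for 6 of 8854 genes (0.0678%) and negative for 2 (0.0226%). Cxcl14, a chemokine of fibroblasts and epithelium, was at 179 and 135 CPM in Mmp3-positive cells at day 6, 453 and 682 at day 9 and 1733 and 814 at day 12, against 351 and 301, 161 and 176, and 238 and 269 CPM in Mmp3-zero cells. The change of its difference was 3.49 ± 0.50 on the log2 scale (adjusted p = 1.32e-08).

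Igfbp3 was at 625 and 2586 CPM in Mmp3-positive cells at day 6, 5300 and 6466 at day 9 and 12700.2 and 7299 at day 12, against 1782 and 1985, 1790 and 1738, and 2623 and 2831 CPM in Mmp3-zero cells. Its change was 2.49 ± 0.30 (adjusted p = 1.86e-12). Col3a1 changed by 1.79 ± 0.32, Ccnd1, cyclin D1, by 1.89 ± 0.40, Nupr1 by 2.64 ± 0.60 and Cxcl12 by 1.88 ± 0.46. Negative changes were those of Col10a1 (-3.64 ± 0.72) and of the ribonucleotide reductase gene Rrm2 (-3.42 ± 0.68). Of the UMIs of Col10a1 47.3% were in 1 cell of day 6 A, and of those of Rrm2 47.7% were in 1 cell of day 6 B. The median change over all genes was 0.14. These calls depended on single libraries and on the tool. DESeq2 called Cxcl14 alone, thinning left calls for Igfbp3 and Col3a1, and 15, 4, 1 and 2 genes were called without day 6 A, day 9 A, day 9 B and day 12 A. Without day 6 A the change of Col10a1 was 7.57, in the other direction and not called.

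**Figure D5:**
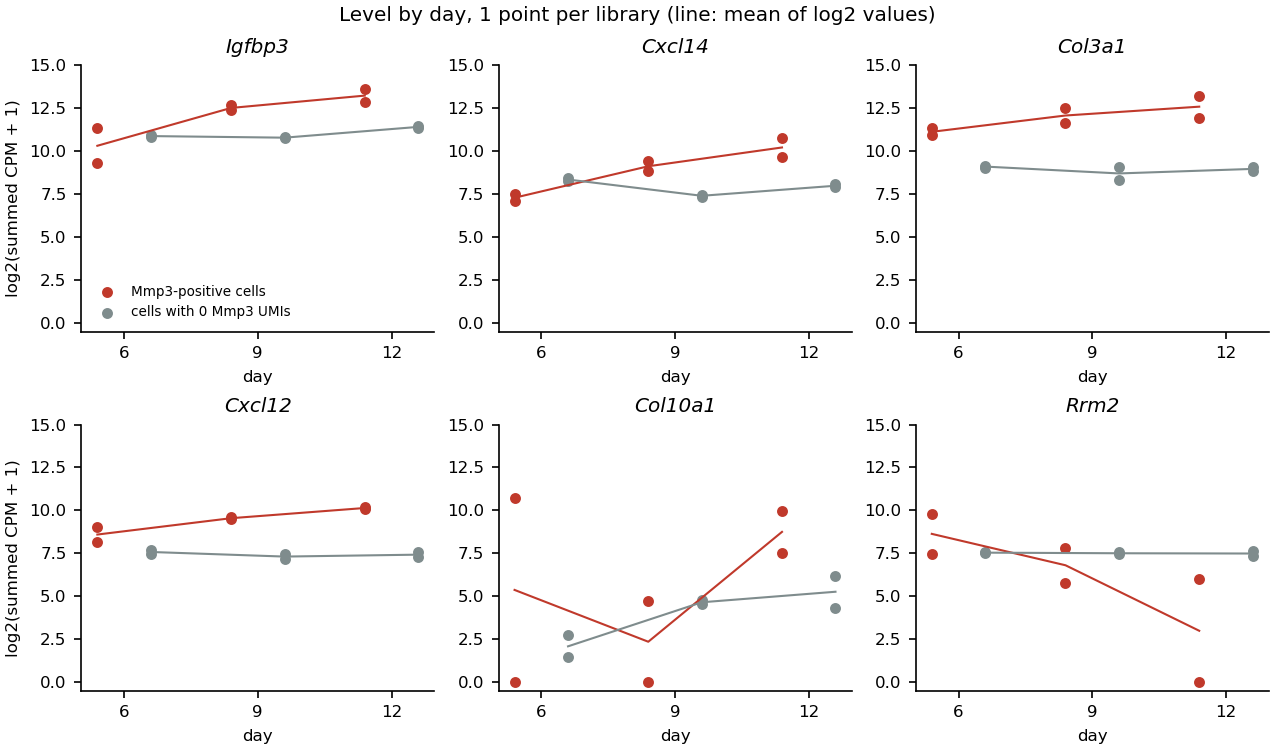
Level of 6 genes whose difference between the classes changed between day 6 and day 12, as log2(summed CPM + 1), by day, 1 point per library, in Mmp3-positive cells and in cells with 0 Mmp3 UMIs, with lines through the mean of the log2 values. Igfbp3 and Cxcl14 in Mmp3-positive cells stand higher at day 12 than at day 6, and the day 6 points of Col10a1 and Rrm2 lie far apart.

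The genes whose pattern over cells was most like that of Mmp3 were led by Angptl2 and Spp1. Over the 1610 unlisted cells, each thinned to 1000 UMIs, and 3947 genes found in 5% or more of them, the mean over the 6 libraries of the Spearman correlation with Mmp3 was highest for Angptl2 (0.36), Spp1 (0.32), Col3a1 (0.31), Bgn (0.26) and Loxl1 (0.24), followed by Cd248, Col1a1, Adamts1, Col6a1 and Aebp1 (0.24 to 0.22). After thinning 47 cells had an Mmp3 UMI, so these values are a description of few cells and carry no p.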

How the data were processed

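Single-cell 3' RNA was measured in 32 droplet libraries (ddSEQ, SureCell kit, per the labels), 2 per group. The deposited tables hold UMI counts per cell and gene for 24421 genes, and the file names add that barcodes passed a knee filter. The submitters' processing notes list bcl2fastq 2.19, STAR and the mm10 build, with no settings, counting program or annotation. A second deposited table lists feeder barcodes, and 2 of its columns were not used.

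Cells under 1000 UMIs were left out (18 barcodes of the 6 libraries). Summed counts per library and class went into edgeR 4.0.16 (R 4.3.3) with TMM factors, filterByExpr and the quasi-likelihood test, adjusted by Benjamini-Hochberg over all genes tested. CPM levels are sums scaled to library totals. Alternatives were RLE factors, no filter, DESeq2 1.42.0, voom in limma 3.58.1 with a variance per class, thinning to 1000 UMIs, thresholds of 3 and 5 Mmp3 UMIs, doublets left out (Scrublet in scanpy 1.11.5), other blocks and each library left out. Scripts were tested on simulated data. The members, gene lists and tests were chosen with earlier results of these data known. Genes named are the marks of the cells and, per comparison, up to 8 called genes each way with the largest fold at 50 CPM or more and the same sign in every library, up to 3 called per list and direction at 10 CPM or more, and all tested Mmp, Timp and small leucine-rich proteoglycan genes. The text describes a part of these, chosen after values were seen. Col1a1 was added after its values were seen. Replicate deviations at different days were compared to decide on pairing. Replicates differed by more than sampling noise (chi-square per degree of freedom 2.23 to 2.54). Promoters came from RefSeq, for 3 of the 4 marker genes.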

Additional observations from a re-analysis of the deposited data

Results flagged for a closer look

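Of 79 sets of 6 library values (differences in log2 of CPM plus 10, Mmp3-positive over Mmp3-zero or listed feeder cells, and the share of cells), 5 had 1 library standing apart by Dixon's ratio, where chance gives about 1 in 20. Against Mmp3-zero cells, Mmp2 was 0.13 in day 6 B and 1.73 to 2.23 in the other libraries. Serpinf1 was 0.60 in day 6 A and 1.90 to 2.40 elsewhere. Col1a1 was 0.93 in day 6 A and 1.73 to 2.17 elsewhere. Crabp1 was -0.87 in day 6 A and 1.90 to 3.23 elsewhere. Ccng1 was -2.61 in day 6 B and -1.65 to -1.24 elsewhere. Each of these day 6 libraries had 6 Mmp3-positive cells.

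The difference between Mmp3-positive and Mmp3-zero cells changed from day 6 to day 12, by edgeR's test of the interaction, for Igfbp3 (2.49), Cxcl14 (3.49), Col3a1 (1.79), Ccnd1 (1.89), Nupr1 (2.64) and Cxcl12 (1.88), upward, and for Col10a1 (-3.64) and Rrm2 (-3.42), downward, on the log2 scale.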

How the results depend on the processing

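Against Mmp3-zero cells the 2-library fit called 813 genes, 227 with DESeq2, 64 after thinning to 1000 UMIs, and 403 with no replicate block, and the 6-library fit called 1309 and 281 after thinning. With listed feeder cells kept every library passes the 10-cell minimum, so both become 1 fit over 6 libraries, which called 1997. Without 1 library the 6-library fit called 969 to 1243. Against listed feeder cells 72 genes were called, 228 with no filter, 119 with voom, 4 after thinning, 47 with 5 or more Mmp3 UMIs, and 18 to 72 without 1 library. Against MEFs 804 were called, 2239 with no filter, 87 after thinning, 418 with the replicate block, and 118 to 1008 without 1 library. Between day 12 and day 6, 0 were called, 20 with no filter, 2 with DESeq2, 4 with 3 or more and 2 with 5 or more Mmp3 UMIs, and 0 to 30 without 1 library. The interaction called 8 genes, 2 after thinning, 1 with DESeq2 and 1 to 15 without 1 library, with Col10a1 at -4.44 to 7.57 (7.57 without day 6 A). The share was 3.17% and 4.91% with 1 or more Mmp3 UMIs. Thinning leaves few UMIs per sum, and fewer genes tested. The cause of the other moves was not tested. Replicate letters were not paired, since deviations of A from B correlated by -0.01, 0.20 and 0.05 between days, and those of the MEFs by 0.15, 0.04 and 0.12 with days 6, 9 and 12. Leaving out a library, 5 or more Mmp3 UMIs, cells of 5000 or more UMIs and days 9 and 12 alone gave no 2-library fit of their own, as the 10-cell minimum left fewer than 2 libraries or the same ones. Among the named genes, in the 2-library fit 508 values under the alternatives kept direction and side of the threshold, 39 lost the call and 1 gained it, and in the 6-library fit 995 kept them and 17 lost the call. Against listed feeder cells 180 kept them, 17 lost the call and 1 gained it, and against MEFs 217 and 9. For the change between days 40 kept them and 38 lost the call.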
